A study of Mus musculus with 24 samples.

Results

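Brown fat and gonadal white fat of the NZO mouse were compared on 8 single-colour arrays, 4 of brown adipose tissue (BAT) and 4 of gonadal white adipose tissue (gWAT). They were chosen by their titles from the 24 arrays of a series on 2 inbred strains and 3 tissues. NZO, the New Zealand Obese strain (NZO/HiBomDife in the labels), is a polygenic model of obesity and type 2 diabetes. All mice were male and had received a diet with 45% fat, and tissue was taken at 6 weeks of age, per the labels. The BAT arrays carry the numbers 009, 011, 003 and 007 and the gWAT arrays 009, 012, 003 and 007, and values are given in these orders throughout. The same 2 tissues of the lean C57BL/6 strain (B6), 4 arrays each and on the same diet, serve as a second comparison at the end. Nothing in the labels ties a sample to its own mouse, and the p-values therefore reflect only how these samples spread, part of which may be technical.

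Brown fat burns fatty acids and glucose to make heat. Noradrenaline released from sympathetic nerves raises cyclic AMP in the brown adipocyte, which starts lipolysis, and the freed fatty acids both feed the mitochondria and open the uncoupling protein UCP1 in their inner membrane. White fat stores triglyceride, releases fatty acids to other organs and secretes hormones such as leptin, and in obesity the gonadal depot of the mouse gathers macrophages. Interscapular brown fat and gonadal fat also come from different parts of the embryo, and cells of each depot keep the Hox gene pattern of the place where they arose.

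Levels are given as log2 of the processed spot intensity minus the 75th percentile of its array. They compare arrays for 1 probe, not 1 gene with another. A difference is NZO BAT minus NZO gWAT on this log2 scale, so 1 is a 2-fold higher level in BAT. The 75th percentile itself was 130.5 to 153 intensity units on the BAT arrays and 201 to 295 on the gWAT arrays, and no probe was saturated. Between 51.9% and 59.0% of probes were well above background on the BAT arrays, against 52.6% to 58.5% on the gWAT arrays. Correlations over tested genes were 0.978 to 0.991 between BAT arrays, 0.976 to 0.991 between gWAT arrays and 0.872 to 0.901 between a BAT and a gWAT array. In bulk tissue, fewer cells of a type and less RNA per cell cannot be told apart.

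The labelled tissues carried their defining markers. Ucp1 and Cidea were at 9.82 or higher on all BAT arrays. Wt1 and Hoxc9, genes of the gonadal depot, were not well above background on any BAT array and were on all gWAT arrays. The adipocyte markers were high in both tissues: Adipoq, the adiponectin gene, averaged 8.21 ± 0.23 in BAT and 8.65 ± 0.35 in gWAT (SD, n = 4 each). Skeletal muscle RNA was scarce in both. The summed linear level of 25 muscle fibre genes was 27.0 to 53.2 on BAT arrays and 20.7 to 35.1 on gWAT arrays, against 16738 to 18561 in NZO skeletal muscle. Liver transcripts varied between arrays: Alb, the albumin gene, was at -1.86, -1.37, 1.04 and -2.13 in BAT and at 2.57, 4.14, 4.91 and -0.25 in gWAT. One gWAT array stood apart in B cell genes: the summed level of 9 such genes was 23.8 on array 012 and 4.37 to 5.90 on the other gWAT arrays.

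The upstream sequences of 6 genes from the lists below are printed first. The genes encode the uncoupling protein, cytochrome c, a fatty acid dehydrogenase and leptin, and 2 subunits of cytochrome c oxidase found in brown fat and muscle. The genes were chosen after their values were seen. Each window is the 250 bases before the RefSeq transcription start, on build GRCm38, read 5′ to 3′ on the gene's own strand. Capitals mark exact matches, on either strand, to 3 motifs: AAGGTCA (a half-site of oestrogen-related and other nuclear receptors), TGACGTCA (the cyclic AMP response element) and TTGCGCAA (C/EBP). No motif contains another.
Ucp1, chr8:83290098-83290347, plus strand: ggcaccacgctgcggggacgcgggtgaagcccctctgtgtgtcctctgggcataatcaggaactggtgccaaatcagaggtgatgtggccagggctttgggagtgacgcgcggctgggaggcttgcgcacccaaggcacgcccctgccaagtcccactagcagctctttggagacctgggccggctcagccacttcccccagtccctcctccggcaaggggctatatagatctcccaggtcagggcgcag
Cox7a1, chr7:30183921-30184170, plus strand: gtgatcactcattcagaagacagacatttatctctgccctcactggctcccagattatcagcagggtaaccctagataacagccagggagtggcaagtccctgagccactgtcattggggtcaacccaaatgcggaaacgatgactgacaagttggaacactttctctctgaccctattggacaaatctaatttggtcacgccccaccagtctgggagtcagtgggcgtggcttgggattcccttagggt
Cox8b, chr7:140900447-140900696, minus strand: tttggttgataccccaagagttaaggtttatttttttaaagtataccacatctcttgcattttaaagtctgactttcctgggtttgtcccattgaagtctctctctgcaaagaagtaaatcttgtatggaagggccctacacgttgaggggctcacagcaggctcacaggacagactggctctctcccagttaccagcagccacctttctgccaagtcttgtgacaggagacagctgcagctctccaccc
Cycs, chr6:50566570-50566819, minus strand: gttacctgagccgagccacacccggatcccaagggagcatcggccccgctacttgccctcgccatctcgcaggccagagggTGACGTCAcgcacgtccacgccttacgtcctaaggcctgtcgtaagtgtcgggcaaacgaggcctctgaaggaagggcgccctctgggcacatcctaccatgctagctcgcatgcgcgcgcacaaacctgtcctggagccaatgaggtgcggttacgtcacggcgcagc
Acadm, chr3:153944644-153944893, minus strand: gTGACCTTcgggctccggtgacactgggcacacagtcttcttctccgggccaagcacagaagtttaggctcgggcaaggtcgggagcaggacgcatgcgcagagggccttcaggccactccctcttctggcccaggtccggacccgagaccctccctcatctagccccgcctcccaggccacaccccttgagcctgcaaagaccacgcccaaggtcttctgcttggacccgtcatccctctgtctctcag
Lep, chr6:29059971-29060220, plus strand: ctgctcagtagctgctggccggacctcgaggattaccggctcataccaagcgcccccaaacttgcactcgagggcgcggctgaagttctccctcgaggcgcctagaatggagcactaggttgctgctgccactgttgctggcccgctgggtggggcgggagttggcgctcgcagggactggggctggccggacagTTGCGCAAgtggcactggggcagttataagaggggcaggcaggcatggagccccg
The Cycs window held 1 cyclic AMP response element, beginning 169 bases before the start. The Acadm window held 1 nuclear receptor half-site at its far end, 249 bases before the start, and the Lep window held 1 C/EBP match 55 bases before it. The windows of Ucp1, Cox7a1 and Cox8b held none of the 3. Among all 32851 promoter windows of the mouse table, AAGGTCA stood in 4.08%, TGACGTCA in 1.55% and TTGCGCAA in 0.164%. Among the 74 windows of respiratory chain and ATP synthase genes, 6 held AAGGTCA, 5 held TGACGTCA and none held TTGCGCAA. In the same order, 0, 4 and 1 of 29 windows of citric acid cycle and pyruvate dehydrogenase genes held them. The counts were 1, 0 and 0 of 24 windows for fatty acid oxidation, and 2, 1 and 0 of 37 for brown fat effectors. These matches describe letters only, and the windows leave out distant enhancers.

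Most genes differed between the tissues. Of 21490 genes tested with limma, 13459 (62.6%) passed a Benjamini-Hochberg adjusted p of 0.05, with 7825 (36.4%) higher and 5634 (26.2%) lower in BAT. At least a 2-fold difference was seen in 7578 (35.3%). The split depended on the scaling of the arrays. The median difference of all genes was 0.20 with the 75th percentile, -0.25 after centring each array on its median, 0.10 after quantile normalization and 0.285 after normexp background correction. With median centring 3808 genes were called higher and 7713 lower, with quantile normalization 6904 and 6522, and with normexp 10452 and 5099. In the same direction under all 4 scalings were 3716 genes (17.3%) higher and 4387 (20.4%) lower. Counts below give the calls with the 75th percentile first and, where they differ, the calls held under all 4 scalings. The plot of differences by gene list shows the main groups described below.

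**Figure D1:**
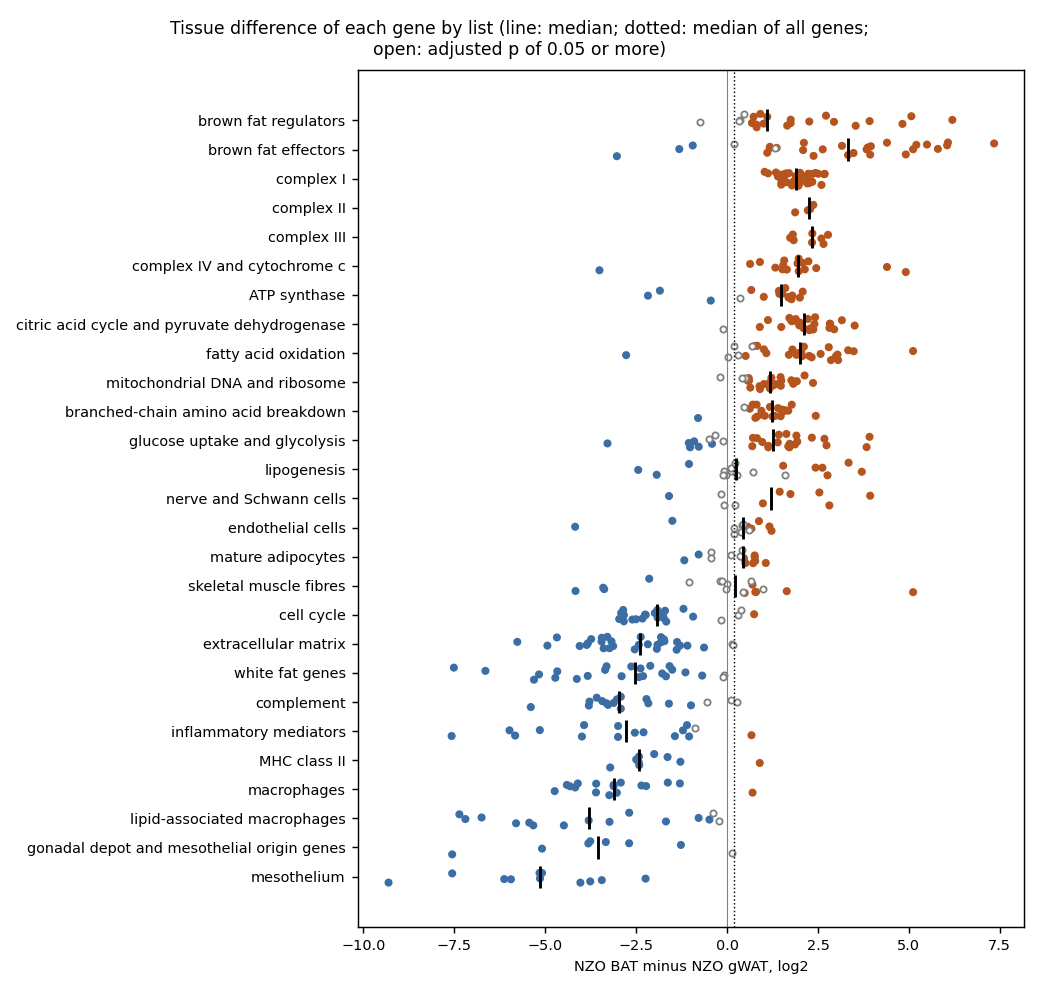
Differences, NZO BAT minus NZO gWAT on the log2 scale (x axis), of each tested gene in 27 gene lists (rows). Orange points passed the test and were higher in BAT, blue points passed and were lower, open points did not pass, thick lines are list medians and the dotted line is the median of all genes, 0.20. Brown fat and mitochondrial lists lie to the right, and matrix, white fat, macrophage and mesothelial lists to the left.

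The genes that carry out heat production were far higher in BAT. Ucp1 (probe at mm9 chr8:85821788-85821847) was at 10.03, 10.19, 9.82 and 9.98 in BAT, against 3.78, 3.83, 4.0 and 4.21 in gWAT. The tissues were far apart on every array, and the difference was 6.05 ± 0.14 (SE), a ratio of 66.3 (adjusted p = 4.74e-08). Cidea, a lipid droplet protein of brown adipocytes, was at 10.63, 10.45, 10.56 and 10.37 in BAT and at 4.88, 4.45, 4.23 and 5.26 in gWAT, a ratio of 55.6. Fabp3, the heart type fatty acid binding protein, was at 9.0, 9.0, 9.26 and 8.45 in BAT and at 1.75, 1.49, 1.26 and 1.85 in gWAT. Its difference of 7.34 ± 0.20 was the highest of all genes well above background on all 8 arrays (adjusted p = 7.78e-08). In all, 24 of 29 tested brown fat effector genes were higher in BAT, each under all 4 scalings, 3 were lower (1 under all 4 scalings) and 2 did not pass. Their median difference was 3.33, against 0.20 for all genes.

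Other effectors differed over a wide range. Cpt1b, the muscle type carnitine palmitoyltransferase that admits fatty acids to mitochondria, was at 6.20, 6.46, 6.04 and 6.04 in BAT and at 1.14, 0.96, 0.98 and 1.22 in gWAT, a difference of 5.11. Pank1, which starts coenzyme A synthesis, differed by 5.50 and Slc27a2, a very long chain acyl-CoA synthetase, by 5.20. Slc27a2 had a wide spread in gWAT, with -1.95, -0.32, -0.09 and -4.25, and its 2 highest gWAT arrays were the 2 highest in Alb. Acot11, a thioesterase of brown fat, ranged over 3.65 to 6.59 in BAT but stayed between -1.06 and -0.91 in gWAT (difference 6.07). Dio2, the deiodinase that makes active thyroid hormone in the brown adipocyte, was at 2.33, 3.71, 0.95 and 2.31 in BAT and at -0.72, -1.22, -1.66 and -0.41 in gWAT. Its groups did not overlap, and the difference was 3.33 ± 0.53 (adjusted p = 0.000634). Plin5, which tethers droplets to mitochondria, differed by 2.63, and Otop1, Kcnk3 and Gk by 3.48, 2.38 and 2.09.

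Elovl3, the elongase of cold-activated brown fat, was an exception. It was at -2.44, 1.09, -5.28 and 0.30 in BAT, well above background on 3 of 4 arrays, and at -2.69, -3.0, -1.68 and -4.26 in gWAT. The tissues overlapped and the difference of 1.33 ± 1.28 did not pass (adjusted p = 0.383). Mtus1 did not pass either, at 0.19. Fgf21, a hormone induced in activated brown fat, was well above background on 1 of 4 BAT arrays and on all gWAT arrays. It was at -6.38, -2.19, -5.80 and -5.14 in BAT and at -1.45, -2.37, -2.11 and -1.46 in gWAT, so that BAT array 011 lay among the gWAT arrays. Its difference was -3.03 (adjusted p = 0.00971). The stress hormone gene Gdf15 was lower in BAT by 1.31. Epsti1, the last of the 3, was well above background on no BAT array, and its level in gWAT gave no bound above 1.

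**Figure D2:**
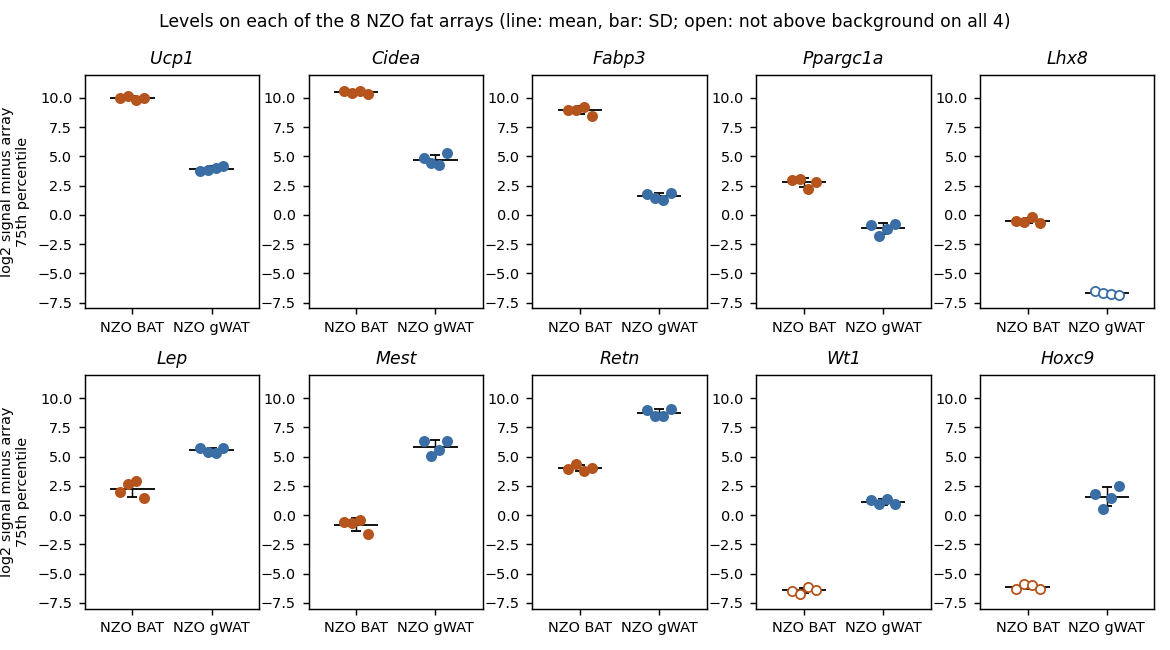
Level of 10 genes on each array, as log2 signal minus the 75th percentile of the array (y axis), for NZO BAT (left, orange) and NZO gWAT (right, blue). Lines are means, bars SD (n = 4), and open circles mark a tissue in which the probe was not well above background on all 4 arrays. The 5 upper genes are higher on every BAT array and the 5 lower genes on every gWAT array.

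Transcriptional regulators of brown fat were higher as well, by less. Of 23 tested, 19 were higher in BAT, 12 of them under all 4 scalings, and none was lower. Their median difference was 1.1. Of the 23, 2 were measured only in BAT (Lhx8 and Tbx15, described below), and the filter largely set their direction. Ppara, the fatty acid receptor that drives oxidation genes, was at 6.57, 6.12, 6.54 and 6.50 in BAT and at 1.43, 1.05, 1.22 and 1.77 in gWAT (difference 5.07). Ppargc1a and Ppargc1b, coactivators of mitochondrial biogenesis, differed by 3.92 and 3.54. Ppargc1a was at 2.95, 3.07, 2.22 and 2.85 in BAT and at -0.88, -1.76, -1.20 and -0.75 in gWAT. Prdm16, which directs precursors to the brown fate, was at 1.44, 1.05, 0.78 and 1.03 in BAT, against -1.81, -2.15, -1.87 and -1.64 in gWAT (difference 2.94). The oestrogen-related receptors Esrrg, Esrrb and Esrra differed by 2.72, 2.26 and 1.75. Ebf2, which marks brown precursors, differed by 1.65. Regulators shared by all adipocytes differed little: Pparg by 0.72, Cebpb by 0.91, and Cebpa by 0.36, which did not pass.

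Of 13 tested genes of brown fat lineage and position 7 were higher in BAT (5 under all 4 scalings). None was lower and 6 did not pass, with a list median of 0.81. Of all genes tested, 36.4% were higher and 26.2% lower. Meox2, Pax3 and Hoxb5 did not pass, at 0.43, 0.55 and -0.54. Lhx8, a homeobox gene of classical brown fat, was at -0.56, -0.59, -0.17 and -0.67 in BAT and not well above background on any gWAT array, so it was at least 19.3-fold higher in BAT (means -0.50 in BAT and -6.69 in gWAT). Such a bound sets the mean of the bright tissue against the lowest signal well above background on each array of the other, or the probe's own signal if higher. Tbx15 was at least 5.73-fold higher (means -2.25 and -7.08). Lhx8 and Tbx15 passed the filter through BAT alone, which largely set their direction. Pax7, a gene of the myogenic precursors that also give rise to brown fat, was well above background on all BAT arrays and on 1 of 4 gWAT arrays, with a difference of 3.03. Zic1 was measured by 2 probes that disagreed. The one at mm9 chr9:91255425-91255484 was at 0.50, 0.81, 0.81 and 0.17 in BAT and not well above background on any gWAT array, at least 40.6-fold higher in BAT. The probe brighter on average over the 24 arrays, at chr9:91257301-91257360, stood for the gene in the test and differed by 0.32 (adjusted p = 0.0589).

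The genes of the mitochondrial respiratory chain rose together in BAT. Of 83 tested genes of complexes I to V and cytochrome c, 78 were higher, 73 of them under all 4 scalings, 4 were lower and 1 did not pass, with a median difference of 1.83. All 37 complex I genes were higher, with a median of 1.89, and 36 held under all 4 scalings. Ndufv1, which binds NADH, was at 9.31, 9.27, 9.34 and 9.27 in BAT and at 6.83, 6.30, 6.47 and 6.85 in gWAT (difference 2.68). The 4 complex II and 9 complex III genes were higher under every scaling, with medians of 2.25 and 2.34. Uqcrc1, a core protein of complex III, differed by 2.78 and Cyc1, cytochrome c1, by 2.65. Among 17 genes of complex IV and cytochrome c, 16 were higher (14 under all 4 scalings) and 1 lower. Of 16 ATP synthase genes 12 were higher (10 under all 4 scalings) and 3 lower, with a median of 1.48. Atp5d, of the central stalk, differed by 2.08.

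Subunits that exist in tissue forms had no common pattern. Cox7a1 and Cox8b, the heart and muscle forms of 2 small subunits of cytochrome c oxidase, were 30.2 and 21.1 times higher in BAT, while their widespread partners Cox7a2 and Cox8a differed by 1.52 and 1.33 on the log2 scale. Cox7a1 was at 9.83, 9.93, 9.84 and 9.82 in BAT and at 5.02, 4.74, 4.61 and 5.39 in gWAT. Cox8b was at 10.15, 9.98, 10.13 and 10.16 in BAT and at 5.98, 5.20, 5.33 and 6.32 in gWAT. Cox4i2, the lung form of another subunit, was higher by 0.63, not under all 4 scalings, and its widespread partner Cox4i1 by 1.57. Cox6a2, a muscle form, went the other way. It was at -2.05, -3.03, -3.05 and -2.49 in BAT, below all gWAT arrays at 0.84, 0.90, 0.68 and 1.00 (difference -3.51, adjusted p = 2.71e-06), while Cox6a1 was higher by 1.54. Atpif1, the inhibitor of ATP synthase, was lower in BAT by 1.85, with 4.29, 4.29, 4.30 and 3.97 in BAT against 6.18, 5.96, 5.89 and 6.20 in gWAT. One of 2 probes of Atp5g1, a gene of the membrane ring of ATP synthase, was lower by 2.18 and the other differed by 0.11. Atp5g3, another ring gene, named after its values were seen as the last of the 4 that were lower, fell by 0.45, and its call was lost on leaving out any one of BAT arrays 009, 003 and 007 or gWAT arrays 009 and 007.

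**Figure D3:**
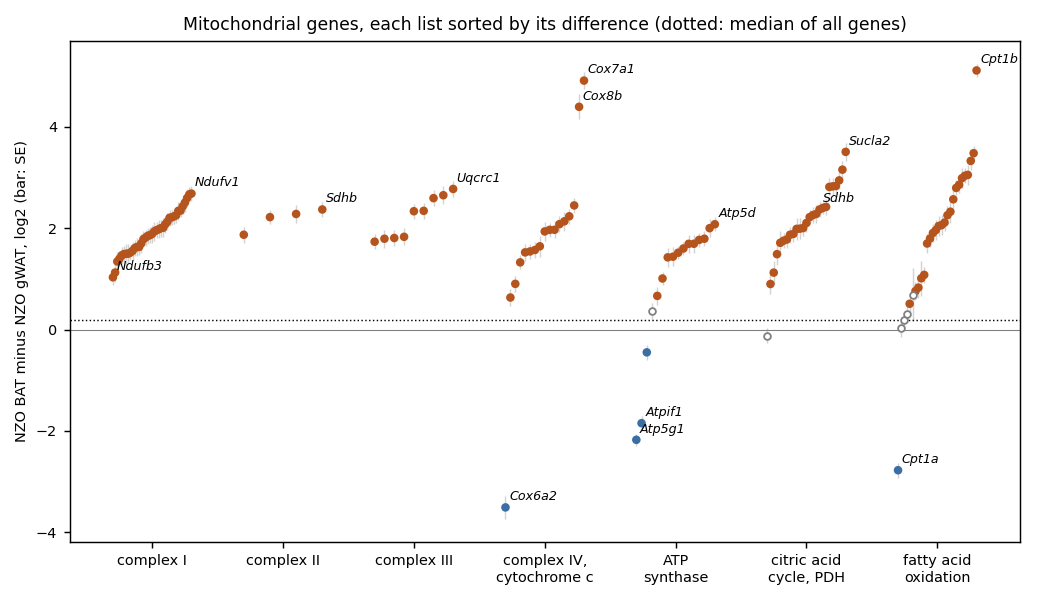
Differences, NZO BAT minus NZO gWAT on the log2 scale (y axis, bars SE), for tested genes of 7 mitochondrial lists, sorted within each list. Colours are as in the plot of differences by gene list. All complex I, II and III genes lie above 0, and Cox6a2, Atpif1, Atp5g1 and Cpt1a lie at -1.85 or below.

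Carriers of the inner mitochondrial membrane were mixed: 17 of 26 were higher (11 under all 4 scalings) and 5 lower. After Ucp1 the highest were Slc25a34 (4.36), Slc25a42, which imports coenzyme A (3.07), and Slc25a20, which imports acylcarnitine (2.99). Ucp2 was lower in BAT, with 0.70, 1.23, 0.59 and 0.70 against 2.76, 3.05, 2.91 and 2.94 in gWAT (difference -2.11). The dicarboxylate carrier Slc25a10 was lower by 3.54 and the aspartate-glutamate carriers Slc25a13 and Slc25a12 by 2.98 and 1.32. The 2 probes of Ucp3 disagreed, one at 2.33 (adjusted p = 2.54e-05) and the one used for the gene at -0.20 (adjusted p = 0.336). Genes that copy and translate mitochondrial DNA were higher in 22 of 25 cases, 14 under all 4 scalings, with a median of 1.18, led by Mrpl34, a mitochondrial ribosomal protein, at 2.36 and the elongation factor Tufm at 2.13.

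The pathways that feed the chain were higher in the same direction. Of 25 citric acid cycle and pyruvate dehydrogenase genes, 24 were higher (22 under all 4 scalings), with a median of 2.10. Sucla2, of succinyl-CoA ligase, was at 9.31, 9.14, 9.26 and 9.06 in BAT and at 6.01, 5.28, 5.50 and 5.96 in gWAT (difference 3.51). Of 28 fatty acid oxidation genes, 23 were higher (19 under all 4 scalings) and 1 lower, with a median of 2.0. The thiolase Acaa2 and the dehydrogenase Acadl differed by 3.48 and 3.33. The liver form of the entry enzyme was the member that was lower: Cpt1a was at 1.18, 0.98, 0.94 and 0.72 in BAT and at 3.91, 3.58, 3.54 and 3.90 in gWAT (difference -2.78). Among the 4 that did not pass were the peroxisomal genes Acaa1b at 0.18, Acaa1a at 0.30 and Ehhadh at 0.69, named after their values were seen. Branched-chain amino acid breakdown was higher in 21 of 23 genes (13 under all 4 scalings), with Bckdha, of the branched-chain keto acid dehydrogenase, at 2.44. Bcat2, the first enzyme of the pathway, was lower by 0.80.

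Glucose genes were mostly higher in BAT. Of 30 genes of glucose uptake and glycolysis, 21 were higher (17 under all 4 scalings) and 6 lower, with a median of 1.27. Ldhb, the heart form of lactate dehydrogenase, was at 7.43, 7.66, 7.38 and 7.33 in BAT and at 3.67, 3.34, 3.33 and 3.80 in gWAT (difference 3.92), and Ldha differed by 0.69. Pdk4, which shuts pyruvate dehydrogenase, differed by 3.84, and Pfkm, the muscle phosphofructokinase, by 2.73. The liver form Pfkl was higher by 2.33 and is named here with its value known. Slc2a4, the insulin-responsive transporter GLUT4, was higher in BAT by 1.91 and Slc2a1, the basal transporter GLUT1, lower by 1.05. Hk3, a hexokinase of myeloid cells, was lower by 3.29.

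Fat synthesis showed no single direction: of 18 genes 6 were higher (5 under all 4 scalings), 3 lower and 9 did not pass, with a median of 0.25. Elovl6, an elongase of saturated fatty acids, was at 5.46, 6.63, 4.64 and 6.21 in BAT and at 2.17, 2.03, 1.92 and 2.0 in gWAT (difference 3.70). The carboxylases Acacb and Acaca differed by 3.34 and 2.76, and Thrsp, a thyroid hormone responsive gene of lipogenesis, by 2.62. Fasn, fatty acid synthase, spread over 3.10 to 6.69 in BAT, against 3.58 to 3.78 in gWAT. Its difference of 1.58 did not pass (adjusted p = 0.0657), and it was named after its values were seen. BAT array 011 was the highest and BAT array 003 the lowest for Elovl6, Fasn, Elovl3, Acot11 and Dio2 alike. The desaturase Scd2 was lower in BAT by 2.44. In triglyceride synthesis and storage 13 of 24 genes were higher (7 under all 4 scalings) and 5 lower. Cidec, the droplet protein of white adipocytes, was lower by 1.18, and Mogat2, a monoacylglycerol acyltransferase, by 4.36, at 0.58, 1.12, 0.10 and 0.65 in BAT against 4.87, 5.05, 4.81 and 5.15 in gWAT.

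Of 23 genes of lipolysis and adrenergic signalling 9 were higher (4 under all 4 scalings) and 5 lower (3). The beta receptors Adrb1 and Adrb3 were higher in BAT by 2.17 and 1.25. Adrb3 was at 6.88, 6.82, 6.59 and 7.09 in BAT and at 5.57, 5.27, 5.41 and 6.11 in gWAT. Gnas, which encodes the stimulatory G protein, differed by 2.30 and the adenylyl cyclase Adcy3 by 1.38. Adcy5, another adenylyl cyclase, was lower by 3.82, with 1.26, -0.35, 0.87 and 1.24 in BAT against 4.84, 4.20, 4.36 and 4.89 in gWAT. Adra2a, the inhibitory alpha-2A receptor, was well above background on all gWAT arrays and no BAT array, at least 5.25-fold lower in BAT (means -4.72 in BAT and -1.85 in gWAT). Lpl, lipoprotein lipase, which frees fatty acids for uptake, was lower in BAT by 0.78.

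White fat genes were lower in BAT almost without exception. Of 24 tested, 22 were lower, each under all 4 scalings, and Rb1 and Tle3 did not pass, at -0.07 and -0.11. Their median difference was -2.53. Lep, the leptin gene (probe at mm9 chr6:29023234-29023293), was at 1.96, 2.68, 2.90 and 1.47 in BAT and at 5.77, 5.43, 5.33 and 5.74 in gWAT, 9.94 times higher in gWAT (adjusted p = 2.11e-05). Retn, the adipocyte hormone resistin, was at 3.98, 4.36, 3.80 and 4.02 in BAT and at 8.95, 8.52, 8.50 and 9.09 in gWAT (difference -4.72). Mest, an imprinted gene tied to adipocyte enlargement, was at -0.59, -0.64, -0.39 and -1.63 in BAT and at 6.36, 5.09, 5.53 and 6.34 in gWAT (difference -6.64). Wfdc21, lower as well, was well above background on 1 of 4 BAT arrays, with means of -4.48 in BAT and 3.03 in gWAT. Sfrp5, a secreted Wnt inhibitor, and Psat1, of serine synthesis, were lower by 5.31 and 5.17.

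Among 21 secreted adipokines 4 were higher in BAT (3 under all 4 scalings), 12 lower (9) and 5 did not pass. Nampt, an enzyme of NAD synthesis that is also secreted, was higher by 1.99, Vegfa, which draws blood vessels, by 1.29, and Nrg4, a growth factor secreted by brown fat, by 1.17. Angptl8, an inhibitor of lipoprotein lipase, was higher by 0.91, a call lost without BAT array 007 or without any one of gWAT arrays 009, 012 and 007, and turned to -0.08 with slide as a block. Metrnl, Nucb2 and Rarres2 were lower by 3.04, 2.54 and 2.53. Adipoq differed by -0.44 (adjusted p = 0.0797), Cfd, adipsin, by 0.12 and Rbp4 by -0.34, and none of these passed. Of the mature adipocyte markers, 7 of 14 were higher, none of them under all 4 scalings, and 2 were lower. Fabp4 differed by 0.46 and Plin1, which coats the droplet, by 0.76, and the call on Fabp4 was lost with the replicate block (adjusted p = 0.0589) and without BAT array 009, and its sign turned after quantile normalization (-0.31).

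Genes of gonadal depot origin were mostly lower in BAT. Wt1, expressed in precursors of visceral fat and in mesothelium, was at 1.33, 0.93, 1.34 and 0.92 in gWAT and not well above background in BAT, where it was at least 41.4-fold lower (means -6.43 in BAT and 1.13 in gWAT). Tcf21, a visceral fat precursor gene, was at least 9.56-fold lower in BAT (means -6.07 in BAT and -0.98 in gWAT). With normexp this bound was 1.69. Of 8 genes of gonadal depot and mesothelial origin, 7 were lower in BAT (5 under all 4 scalings). Gata6, Osr1 and Aldh1a2, which makes retinoic acid, were lower by 3.33, 2.69 and 3.82, Aldh1a2 with 3 of 4 BAT arrays well above background. Nr2f1 did not pass, at 0.14. All 11 tested mesothelial genes were lower in BAT, 10 under all 4 scalings. Of these, 9 were measured only in gWAT and passed the filter through gWAT alone. The same held for 3 of the 8 genes of gonadal depot and mesothelial origin. The direction of such genes, in these and all other lists, was largely set by the filter. Msln, the mesothelial surface protein mesothelin, was at least 168-fold lower in BAT (means -6.15 in BAT and 3.15 in gWAT). The summed linear level of the mesothelial genes was 0.346 to 0.410 in BAT and 17.4 to 19.8 in gWAT, and the part of mesothelial cells in the other results was not tested.

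Hox genes are ordered along 4 chromosomal clusters, with low numbers expressed toward the head and high numbers toward the tail. Of 23 tested, 6 were higher in BAT (4 under all 4 scalings), 7 lower (5) and 10 did not pass. Of all genes tested, 36.4% were higher and 26.2% lower, so these counts alone do not set the Hox genes apart. In the Hoxa cluster the low numbers were higher in BAT: Hoxa2 by 1.54, Hoxa3 by 1.72, Hoxa4 by 2.52 and Hoxa5 by 1.95. Hoxa4 was at 0.55, 0.76, 0.21 and 0.49 in BAT and at -1.94, -2.07, -2.12 and -1.93 in gWAT. Hoxa7 was lower in BAT by 0.61, and Hoxa6 and Hoxa9 did not pass, at 0.31 and 0.58. In the Hoxc cluster Hoxc5 was higher by 0.99, Hoxc8 was lower by 3.34, well above background on 2 of 4 BAT arrays, and Hoxc9 was not well above background on any BAT array. Hoxc9 (probe at mm9 chr15:102814735-102814794) was at 1.78, 0.57, 1.47 and 2.52 in gWAT, so it was at least 56.7-fold lower in BAT (means -6.11 in BAT and 1.58 in gWAT). Hoxb7, Hoxd8 and Hoxd9 were lower by 1.30, 0.57 and 0.84, though Hoxd9 was at 0.05 with normexp. Without the 3 arrays highest in liver transcripts, described below, 8 were higher and 4 lower. The call on Hoxb3, -0.43, was lost with the replicate block (adjusted p = 0.137).

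**Figure D4:**
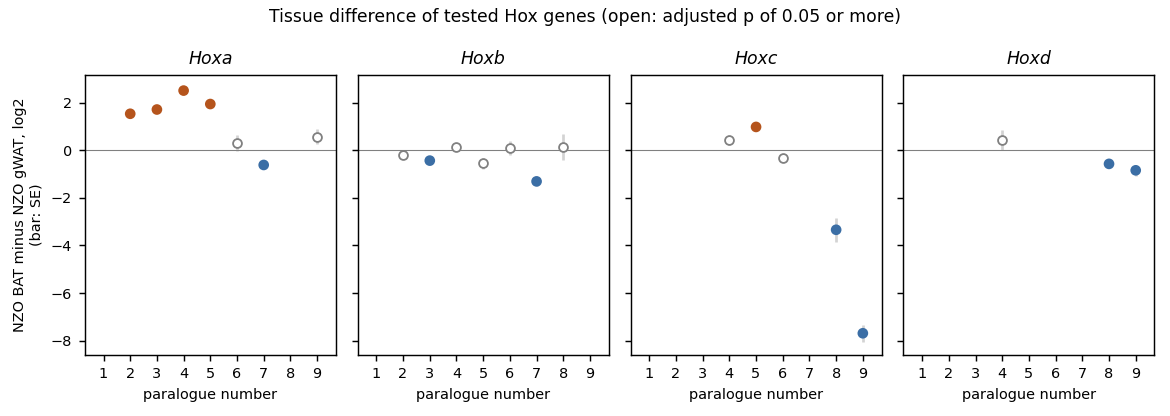
Differences, NZO BAT minus NZO gWAT on the log2 scale (y axis, bars SE), of tested Hox genes, 1 of them not shown, against their paralogue number (x axis) in the 4 clusters. Orange points passed and were higher in BAT, blue points passed and were lower, and open points did not pass. Hoxa2 to Hoxa5 lie above 0 and Hoxc8 and Hoxc9 below it, Hoxc9 drawn at its signal difference although it was not well above background in BAT.

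Macrophage genes were lower in BAT. Of 17 tested, 16 were lower (15 under all 4 scalings), with a median difference of -3.12, and the summed level of the list was 42.5 to 51.3 in BAT and 272 to 318 in gWAT. Adgre1, the F4/80 antigen, was at 0.57, 0.19, 0.40 and 0.47 in BAT and at 4.10, 4.12, 3.98 and 3.85 in gWAT. Cd68, a lysosomal protein of phagocytes, was at 0.60, 0.54, 0.24 and 0.60 in BAT and at 4.62, 4.93, 4.90 and 4.81 in gWAT (difference -4.32). Lyz2, lysozyme, was lower by 4.41, and the scavenger receptor Msr1 by 4.74, with 1 of 4 BAT arrays well above background. Itgam was called higher by 0.70, but its 3 probes gave 1.76, 0.70 and -1.92 and its call was lost with the replicate block (adjusted p = 0.0683) or without any one of 5 arrays. Of 15 genes of lipid-associated macrophages, the cells that surround dying adipocytes, 13 were lower under all 4 scalings, with a median of -3.80. Trem2, their lipid receptor, was at -1.45, -1.25, -1.17 and -1.58 in BAT and at 5.27, 5.67, 5.33 and 5.27 in gWAT (difference -6.75 ± 0.15, adjusted p = 4.74e-08). Gpnmb was at -3.70, -3.79, -3.72 and -3.82 in BAT and at 3.34, 4.07, 3.87 and 3.14 in gWAT, the lowest difference of genes well above background on all 8 arrays (-7.36). Lgals3, galectin-3, was lower by 5.80 and Atp6v0d2, a proton pump subunit, was at least 66.7-fold lower. Of the 15 genes of lipid-associated macrophages 2 were measured only in gWAT, and the filter largely set their direction.

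Most inflammatory, MHC class II and complement genes were lower in BAT too. Among the tested genes, 3 inflammatory, 1 complement and 1 neutrophil gene were measured only in gWAT, and the filter largely set their direction. Of 16 inflammatory mediators 14 were lower (10 under all 4 scalings), among them Saa3, a serum amyloid of fat (-7.57, well above background on 2 of 4 BAT arrays), and the monocyte chemokines Ccl7, Ccl2 and Ccl8 (-5.98, -5.83 and -5.15). Ccl2 was at -0.80, -1.51, -0.62 and -0.37 in BAT and at 4.79, 5.36, 4.94 and 4.90 in gWAT. Of 9 MHC class II genes 8 were lower (6 under all 4 scalings), among them Cd74 and H2-Ab1 at -2.42 and -2.50. Of 18 complement genes 15 were lower (14), with C6 at -5.40 (1 of 4 BAT arrays well above background) and the receptor C3ar1 at -3.80. Of 7 neutrophil genes 5 were lower (3 under all 4 scalings) and 1 higher. S100a8, of neutrophils and monocytes, was lower by 5.90 and Csf3r, the G-CSF receptor, higher by 1.22. The summed linear level of the neutrophil list was 134 to 152 in BAT and 68.9 to 104 in gWAT. Csf3r alone, with means of 7.11 in BAT and 5.88 in gWAT, carried most of this sum. Of 10 T cell genes 2 were higher and 3 lower, none and 2 of them under all 4 scalings. After median centring 7 were lower and none was higher. Cd3e did not pass, with 1.95, 1.82, 1.49 and 2.71 in BAT and 1.43, 1.63, 1.14 and 2.25 in gWAT. Of 6 B cell genes 3 were lower (2 under all 4 scalings) and 1 higher (none). The B cell gene Ms4a1 was at -1.89, 2.49, -2.07 and -2.48 in gWAT, so gWAT array 012 carried most of its level. Its call (difference -3.35, adjusted p = 0.0236), with 2 of 4 BAT arrays well above background, was lost without BAT array 009.

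The extracellular matrix was lower in BAT in 30 of 32 genes (29 under all 4 scalings), with a median of -2.40, and none was higher. Thbs1, the matricellular thrombospondin, was lower by 5.77, with 2 of 4 BAT arrays well above background, and Timp1, an inhibitor of matrix proteases, by 4.94. Timp1 was at -1.35, -1.73, -1.53 and -0.64 in BAT and at 3.37, 3.53, 4.07 and 3.53 in gWAT. Fn1, fibronectin, was at 2.50, 2.36, 2.08 and 2.32 in BAT and at 7.08, 6.82, 7.15 and 6.91 in gWAT (difference -4.68), and Fmod, a collagen-binding proteoglycan also on 2 of 4 BAT arrays, was lower by 4.05. Of 15 genes of fibroblasts and adipocyte progenitors 11 were lower (10 under all 4 scalings), among them Dpp4 (-3.73, on 2 of 4 BAT arrays), Cd55 (-3.31), Thy1 (-2.64) and the receptor Pdgfra (-2.0). Dlk1, which holds back adipocyte differentiation, was the opposite, with 3.84, 3.39, 4.18 and 2.49 in BAT against -0.72, -0.08, -0.43 and -1.12 in gWAT (difference 4.06). Of 24 cell cycle genes 20 were lower in BAT (18 under all 4 scalings), with a median of -1.91. Tk1, thymidine kinase, was lower by 2.86 and Top2a, a topoisomerase of dividing cells, by 2.84, and Bub1 and Kif11 were measured only in gWAT.

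Nerve genes were mostly higher in BAT, and vessel genes had no common direction. Of 10 tested nerve and Schwann cell genes 6 were higher (5 under all 4 scalings) and 1 lower. Sox10, the regulator of Schwann cells, was at -0.68, -0.94, -1.18 and -1.03 in BAT and at -4.05, -4.39, -3.36 and -3.28 in gWAT (difference 2.81). S100b, a calcium-binding protein of Schwann cells that brown adipocytes also secrete, was at 5.98, 6.72, 5.78 and 5.91 in BAT, against 2.47, 1.59, 2.06 and 2.53 in gWAT. Ngfr, the low-affinity neurotrophin receptor, differed by 1.74. Of 13 endothelial genes 5 were higher (2 under all 4 scalings) and 2 lower, with a median of 0.43, and of -0.02 after median centring. The receptors Flt1 and Tie1 were higher by 1.22 and 1.16, and Vwf was lower by 1.5 and Lyve1, also a macrophage gene, by 4.18.

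Muscle and liver genes were looked at in both tissues. Of 18 tested muscle fibre genes 6 were higher (2 under all 4 scalings) and 4 lower (1). Mb, myoglobin, which brown adipocytes also make, was at 1.25, 2.39, 0.16 and 0.95 in BAT and at -3.78, -3.31, -4.75 and -3.86 in gWAT. Acta1, skeletal alpha-actin, was at 0.95, -2.29, -1.23 and -2.04 in BAT and at 3.51, 2.33, 3.0 and 3.21 in gWAT (difference -4.17). Tnnc2, the fast troponin C gene, did not pass, at -0.13. Ckm and Mylpf were not tested, since neither tissue had them well above background on all its arrays. Of 18 liver genes 13 were lower in BAT (12 under all 4 scalings). Trf, transferrin, which adipocytes also make, was at 4.27, 4.28, 4.38 and 4.34 in BAT and at 9.16, 9.03, 8.72 and 9.23 in gWAT. Alb, Ahsg and Fabp1, which were lower by 3.92, 4.19 and 4.10, were highest in BAT on array 003 and in gWAT on arrays 003 and 012, and the tissues overlapped. Without the 3 arrays highest in them, BAT 003 and gWAT 003 and 012, 11 liver genes were lower, and 12514 genes in all were called.

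The 12 highest differences among genes well above background on every array also included Tuba8, an alpha-tubulin (7.21), Ptgds, a prostaglandin D synthase (6.22), Coq8a, of coenzyme Q synthesis (5.96), and Me3, mitochondrial malic enzyme (5.88). Me3 was at 5.46, 5.21, 5.41 and 5.45 in BAT and at -0.38, -0.69, -0.62 and -0.29 in gWAT. Mapt, which encodes tau, Ntrk3, a neurotrophin receptor, Acsm3 and Fn3k followed at 5.70, 5.6, 5.53 and 5.52. The 12 lowest also included Serpina3n, a protease inhibitor (-6.98), Atp1a4, a sodium pump subunit (-6.72), Oxtr, the oxytocin receptor (-6.63), Ubd (-6.52), Lbp, which binds bacterial lipopolysaccharide (-6.29), and Slc13a4, Slc6a13 and Gsdme (-6.26, -6.22 and -6.10). Oxtr was at -2.17, -1.13, -2.0 and -1.85 in BAT and at 5.11, 4.82, 4.34 and 5.11 in gWAT. The 24 genes were picked from called genes with a RefSeq symbol whose groups did not overlap. Their lack of overlap was thus set by the choice, and 58.3% of all genes tested also had none.

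Measured on all BAT arrays and on no gWAT array were 158 genes (0.735%), and the reverse held for 519 (2.42%). The lowest signal well above background was -4.50 to -3.92 on BAT arrays and -4.90 to -4.61 on gWAT arrays. A gene of the same dim level could thus be measured in gWAT and not in BAT. The part of this in the 2 counts was not tested. Perm1, a muscle and brown fat regulator of mitochondrial genes, was at 2.60, 2.80, 2.58 and 2.07 in BAT, at least 154-fold higher (means 2.51 in BAT and -5.18 in gWAT). Gldn, Gm9961 and Olig1 were at least 100.1, 76.6 and 60.3 times higher, and the carrier gene Slc25a48 at least 41.5 times. AI854703, Rnf182 and Nts, the neurotensin gene, were at least 35.2, 23.1 and 22.3 times higher. On the gWAT side Tph2, the neuronal tryptophan hydroxylase of serotonin synthesis, was at 3.55, 3.30, 3.42 and 2.77, at least 181-fold lower in BAT (means -5.95 in BAT and 3.26 in gWAT). Folh1, Col6a5, a collagen VI chain, and Cilp were at least 90.7, 81.7 and 66.0 times lower in BAT. With normexp background correction the bounds were smaller, 20.7 for Perm1 and 24.7 for Tph2, and 366 genes had a bound above 1, against 667 without it.

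Several regulatory lists split. Of 17 clock genes 9 were higher in BAT (7 under all 4 scalings) and 2 lower. Hlf, a clock output factor, differed by 3.90. The repressors Bhlhe40 and Nr1d1 were higher by 1.87 and 1.66. One probe of Rora gave -1.15 and the other 2.01. Of 22 insulin signalling genes 5 were higher (1 under all 4 scalings) and 8 lower (7). Grb14, an inhibitor of the insulin receptor, was higher by 2.42, and Socs3 and Grb10 were lower by 2.01 and 1.64. Of 21 antioxidant genes 8 were higher (5) and 8 lower (7). Gpx3, secreted glutathione peroxidase, was higher by 3.38, and the mitochondrial Txn2 and Txnrd2 by 1.66 and 1.65, while the glutathione transferase Gsta3 and the haem oxygenase Hmox1 were lower by 3.68 and 2.37. In retinoid and steroid handling the retinaldehyde dehydrogenases Aldh1a3 and Aldh1a1 were lower by 4.57 and 4.47, and the receptor Rarb was higher by 2.31. Of 18 unfolded protein response genes 9 were lower under all 4 scalings, with Atf3 at -3.62 and Sdf2l1 at -2.31. In creatine and calcium cycling 7 of 12 were higher (4 under all 4 scalings) and 5 lower (4). Ryr2, a calcium release channel, was measured only in BAT, Alpl, which acts on phosphocreatine in brown fat, was higher by 1.86, and Gatm, of creatine synthesis, was lower by 2.59.

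Whether these tissue differences were particular to NZO was tested as the NZO difference minus the B6 difference over 16 arrays. Of 22550 genes 3876 (17.2%) passed, 1792 (7.95%) with a larger and 2084 (9.24%) with a smaller value in NZO. Under all 4 scalings 532 were larger and 1515 smaller. None of the 37 complex I genes passed, and neither did any of complexes II and III, the ATP synthase or the citric acid cycle. The median difference of complex I was 1.89 in NZO and 2.10 in B6, and the median of the test, NZO minus B6, was -0.17. A p that misses the threshold does not show that the strains are alike.

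Differences of brown fat effectors were smaller in NZO. Of 30 tested, 18 had a smaller BAT minus gWAT difference in NZO than in B6, 17 of them under all 4 scalings, and none a larger one. The list median was 3.24 in NZO and 4.90 in B6. For the uncoupling protein the BAT levels were close and the gWAT levels were not. Ucp1 averaged 10.005 ± 0.15 in NZO BAT and 10.38 ± 0.14 in B6 BAT, and 3.95 ± 0.19 in NZO gWAT and -3.86 ± 0.62 in B6 gWAT (SD, n = 4 each), where it was well above background on 3 of 4 arrays. The NZO difference was smaller by 8.19 ± 0.32 (adjusted p = 7.33e-09). Cidea had the same pattern, with 10.50 in NZO BAT and 10.55 in B6 BAT, and 4.70 in NZO gWAT and 0.93 in B6 gWAT (-3.82, adjusted p = 1.15e-05). The differences of Otop1, Cpt1b, Fabp3 and Cox7a1 were smaller in NZO by 5.58, 3.41, 2.59 and 2.08. The Elovl3 difference was smaller in NZO as well (-6.59, adjusted p = 0.0187), with BAT means of -1.58 in NZO and 3.38 in B6. BAT levels were not tested between strains. Elovl3 was well above background on 3 of 4 NZO BAT and 2 of 4 B6 gWAT arrays. The summed linear level of 30 effectors was 180 to 302 in NZO gWAT and 66.2 to 87.6 in B6 gWAT. Of 23 regulators 3 had a smaller difference in NZO (2 under all 4 scalings) and 2 a larger one (none). Cebpb and Irf4 were smaller by 1.26 and 1.27, and Thra, a thyroid hormone receptor, was larger by 0.79. The other 2 calls were on Tbx15, well above background on no gWAT array, and Foxc2, well above background on 1 of 4 NZO BAT arrays and on no B6 BAT array. Ppargc1a, Prdm16 and Ppara did not pass, at 0.84, -0.10 and 0.07.

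**Figure D5:**
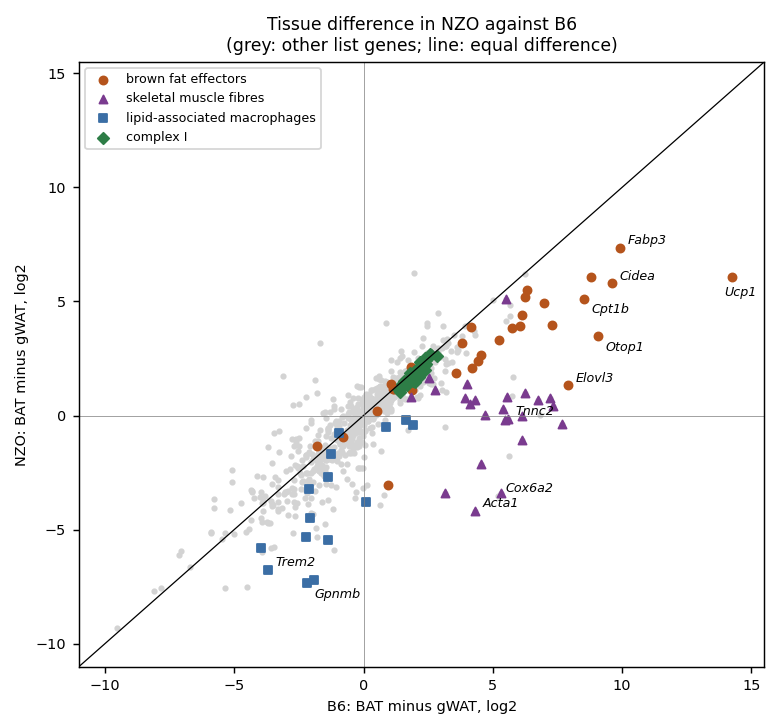
BAT minus gWAT difference on the log2 scale in NZO (y axis) against B6 (x axis) for the list genes, with 4 lists coloured. The line marks equal differences. Most brown fat effectors lie right of the line in the upper part, most muscle fibre genes right of it near 0 on the y axis, most lipid-associated macrophage genes below it at negative values, and complex I genes near it.

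The macrophage contrast was wider in NZO. Of 15 lipid-associated macrophage genes 13 had a lower difference in NZO under all 4 scalings, with medians of -3.80 in NZO and -1.37 in B6. Gpnmb averaged -3.76 in NZO BAT and -3.63 in B6 BAT, on 3 of 4 arrays well above background, and 3.60 in NZO gWAT and -1.45 in B6 gWAT. Trem2 differed by -6.75 in NZO and by -3.68 in B6 (NZO minus B6 -3.07, adjusted p = 1.92e-06). Of 17 macrophage genes 9 passed, all lower in NZO, among them Cd68 (-4.32 in NZO and -1.95 in B6). Of 32 matrix genes 14 passed (10 under all 4 scalings), all lower in NZO. Among 10 T cell genes 1 passed, larger in NZO but not under all 4 scalings, and among 6 B cell genes 1 passed, lower in NZO. Lep and Mest did not pass, at 1.00 and 0.07.

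Among genes well above background on all 16 arrays, the 7 lowest values of this test belonged to muscle genes: Cox6a2 (-8.71), Acta1 (-8.48), Tnni2 (-7.19), Myh8 (-6.80), Tnnt3 (-6.10), Tnnc2 (-5.72) and Pvalb (-5.68). Of 24 muscle fibre genes 20 were smaller in NZO (18 under all 4 scalings). Their summed level was 27.0 to 53.2 in NZO BAT and 359 to 1365 in B6 BAT, against 20.7 to 35.1 in NZO gWAT and 27.8 to 69.2 in B6 gWAT, and the part of muscle fibres taken with B6 brown fat was not tested. Leaving out genes at least 4-fold higher in B6 muscle than in B6 BAT, 3480 genes passed. The highest values among genes well above background on all 16 arrays were those of Klhdc9 (4.83), Inmt, a methyltransferase (4.83), Ptgds (4.28), Acsbg1 (3.43), Dennd2d (3.05) and Wnt5b (2.79). For Klhdc9 the direction itself differed, with 3.16 in NZO and -1.67 in B6. It also differed for Acsbg1 (1.57 and -1.86) and Dennd2d (0.82 and -2.23). Among the muscle genes above it differed for Cox6a2 (-3.51 in NZO and 5.20 in B6) and Acta1 (-4.17 and 4.31), for example. The call on Acsbg1 (adjusted p = 0.0401) did not hold under all 4 scalings. Gm3893 and Prom1, at 3.16 and 3.0, did not pass (adjusted p = 0.130 and 0.0851).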

How the data were processed

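RNA was labelled with Cy3 and hybridised to Agilent single-colour arrays of 60-base probes, per the labels' protocols. The deposited scanner files give, per the file headers, the processed spot intensity of Feature Extraction 11.0.1.1 (the submitters' processing notes name version 9.1) with probe positions on mm9. The deposited series table holds spot intensity too, and its values were those of the scanner files' median signal, averaged over spots of an identifier, judged from the values.

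Control and outlier spots were left out, spots of a probe were averaged, and log2 intensity computed from the authors' deposited values was reduced by the 75th percentile of its array. Testing was limited to probes that the scanner software marked well above background throughout 1 tissue, and a gene was represented by the probe brightest on average over the 24 arrays. limma 3.58.1 in R 4.3.3 fitted the 8 arrays, or 16 for the strain difference, with Benjamini-Hochberg adjustment over all genes at 0.05, after a check on simulated data. Tables and figures were made with Python 3.11.15. The members and the 54 gene lists were chosen with earlier results of these data known. Named genes were all members of 9 lists on brown fat, white fat, position, isoforms, carriers and adipokines, up to 6 called members of other lists, the 12 highest and lowest differences, the 8 largest bounds each way, defining markers and the 8 highest and lowest strain differences. Some genes that this rule names are not reported here.

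Arrays of both tissues numbered 003 and 007 deviated together (correlations 0.277 and 0.313), more than arrays with different numbers (-0.389 to 0.128). The correlation for 009, 0.109, lay within that range. The number was treated as a pair in an alternative fit. Other alternatives were the scaling, background correction, probe filter and choice, the series table, slide, and arrays left out. Precision is set by how many arrays there were: the standard error of a difference was 0.18 (log2) in the median. Promoter sequences are those of RefSeq on GRCm38.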

Additional observations from a re-analysis of the deposited data

Results flagged for a closer look

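Within the groups of 4 arrays, 22 of 500 gene and tissue combinations had 1 array far from the other 3 past Dixon's critical value, and chance alone gives about 1 in 20. In BAT, array 007 stood apart in Atpif1 (3.97), C3ar1 (-2.79), Ccl8 (0.19), Kcnk3 (4.77) and Slc2a1 (-0.41), and array 003 in Cd68 (0.24), Cited1 (-1.57), Cma1 (-2.50), Slc25a34 (2.76) and Socs3 (-0.07). Array 011 of BAT stood apart in Cox7a1 (9.93), Cox8b (9.98), Ppara (6.12) and Tnfrsf9 (4.19), and array 009 in Ms4a1 (-6.05). In gWAT, array 012 stood apart in Ms4a1 (2.49), Cxcl13 (2.84), Ccl7 (4.39), Trem2 (5.67) and Rora (0.67), and array 003 in Hoxd8 (0.18) and Vegfa (3.87). The largest gaps were those of the B cell gene Ms4a1 and the lymphoid chemokine gene Cxcl13 on gWAT array 012, where the other 3 arrays lay at -1.89 or below.

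The BAT minus gWAT difference was not the same in both strains, by limma's test of the NZO difference minus the B6 difference, for the 26 genes listed here. It was lower in NZO for the brown fat genes Ucp1 (-8.19), Elovl3 (-6.59), Otop1 (-5.58), Cidea (-3.82), Cpt1b (-3.41), Fabp3 (-2.59) and Cox7a1 (-2.08), and for the regulators Irf4 (-1.27) and Cebpb (-1.26). It was also lower for the muscle genes Cox6a2 (-8.71), Acta1 (-8.48), Tnni2 (-7.19), Myh8 (-6.80), Tnnt3 (-6.10), Tnnc2 (-5.72) and Pvalb (-5.68), and for the macrophage genes Gpnmb (-5.18), Trem2 (-3.07) and Cd68 (-2.36). It was higher in NZO for Inmt (4.83), Klhdc9 (4.83), Ptgds (4.28), Acsbg1 (3.43), Dennd2d (3.05), Wnt5b (2.79) and Thra (0.79). The list is not complete. Other genes with values in the text also passed this test, among them Atf3 (-3.29), Acot11 (-2.73), Ccl2 (-2.27), Cox8b (-1.73) and Adrb3 (1.44).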

How the results depend on the processing

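Over the alternatives, 11521 to 18847 genes were called between NZO BAT and NZO gWAT, 12033 to 12908 on leaving out 1 array, 12757 with the replicate block and 7578 with a 2-fold minimum. The strain difference was called for 2825 to 4321 genes, 2911 to 4372 on leaving out 1 array and 3720 with the replicate block. Genes with a bound above 1 numbered 667, and 366 after normexp. The lists held 646 calls, 592 after median centring, 625 without the 3 arrays highest in liver transcripts and 505 under all 4 scalings, the last 2 chosen after seeing the data.

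For 250 genes with values in the text, 5278 of 5415 recomputed values kept direction and side of the threshold, 84 lost the call, 44 gained it and 9 turned. After quantile normalization Fabp4 was at -0.31. In the deposited series table Cfd was at -0.67, Fabp4 at -0.42 and Ucp3 at 0.56. With slide as a fixed block Angptl8 was at -0.082 and Fabp4 at -0.015. After normexp Epsti1 was at 0.42, Hoxb3 at 0.14 and Hoxd9 at 0.048. The causes were not tested. The slide with BAT array 003 and gWAT array 012 was the only one with both NZO fat tissues, and there 98.8% of called genes had the same direction. Both arrays were in the fit that made the calls, so this share was largely set beforehand and is no check on slide. The same holds for its 250 values among the 5415, all of which kept their direction. With the replicate block, which left out the unpaired arrays, 1630 calls were lost and no called gene turned; among genes with values in the text it ended 4 calls. Genes near background have only bounds.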

Other observations

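Genes described as markers of beige fat, the brown-like cells that arise within white depots, did not share a direction: of 9 tested, 4 were higher in NZO BAT (3 under all 4 scalings) and 4 lower (3). P2rx5, an ATP-gated channel, was at 6.25, 6.49, 6.47 and 6.03 in BAT and at 2.49, 1.77, 1.88 and 2.47 in gWAT (difference 4.15). Slc36a2, an amino acid transporter, and Cited1 were higher by 1.31 and 1.1, and Tnfrsf9 by 0.81. Ear2, a ribonuclease of eosinophils and macrophages, was lower by 4.99, with -0.61, -0.70, -0.54 and -0.37 in BAT against 4.90, 3.92, 4.29 and 4.65 in gWAT.

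Among lipid uptake genes, Lmf1, which matures lipoprotein lipase, and Gpihbp1, which anchors it to capillaries, were higher in BAT by 1.15 and 0.60, and the fatty acid binding protein gene Fabp5 was lower by 1.68. Vegfb, a vascular growth factor, was higher by 1.59. Of 12 mural cell and smooth muscle genes 6 were higher (2 under all 4 scalings) and 3 lower. The pericyte genes Kcnj8 and Rgs5 were higher by 1.29 and 1.13, and the pericyte receptor Pdgfrb, picked with its value known, was lower by 0.72. The smooth muscle genes Acta2 and Tagln were lower by 1.32 and 1.01, and Cnn1 was higher by 0.83, a call lost with the replicate block (adjusted p = 0.105). Of 6 mast cell genes 4 were lower (3 under all 4 scalings) and 2 higher (1), among the lower them the proteases Cpa3, Cma1 and Mcpt4 (-1.91, -1.67 and -1.45), and Kit was higher by 1.53. The elastase gene Cela1 was lower by 3.69. Cxcl13 was at -4.79, -3.67, -4.87 and -4.26 in BAT, well above background on 1 of 4 arrays, and at -2.43, 2.84, -3.10 and -2.18 in gWAT.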
